A study of Mus musculus with 10 samples.

Results

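The MEF2, TEAD and SRF transcription factors are described here as 9 genes, Mef2a, Mef2b, Mef2c, Mef2d, Tead1, Tead2, Tead3, Tead4 and Srf. They were taken by gene symbol, and each of the 9 was found among the 23337 genes in the count files. The question was which member of each family leads in left ventricle (LV) and in skeletal muscle (SkM), and whether members differ between E0del/+ and WT mice.

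Bulk poly(A) RNA-Seq libraries came from the LV and SkM of 5 mice aged 17 weeks, which gave 10 libraries, each from 1 mouse and 1 tissue. All mice were C57BL/6/129SvEv hybrids. Of these, 2 were WT and 3 were E0del/+, which are heterozygous for a deletion of E0 in intron 1 of the titin gene Ttn. The labels give neither the sex of the mice nor the muscle from which SkM was taken. Total counts were 11010021 to 15361520 in LV and 13892390 to 17484873 in SkM. Batch and replicate carry the same number in the labels: a mouse of either genotype is in batch 1 and in batch 2, while batch 3 is E0del/+ alone.

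MEF2 and SRF proteins share the MADS box, a DNA-binding domain, and TEAD proteins bind DNA through a TEA domain. MEF2 sites, CArG boxes (the sites of SRF) and M-CAT elements (the sites of TEAD) lie near many genes of the sarcomere and of muscle metabolism. TEAD proteins need coactivators such as YAP1 and TAZ, which the Hippo kinases hold out of the nucleus, while SRF works with myocardin family proteins and MEF2 is held back by class IIa histone deacetylases.

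The promoters of 4 members hold letters that these families are known to bind, and 1 promoter of each is shown for that reason. RefSeq promoter sequences (GRCm38.p6, 250 bases before to 50 after a start) matched 7 of the 9 members. Motifs were searched on both strands, and of 32851 promoters 14.7% held the M-CAT core CATTCC, 3.19% the MEF2 consensus and 1.63% a CArG box. Capitals mark the matches: an M-CAT core on the reverse strand 75 to 70 bases before the first start of Mef2c (chr13:83503784-83504083, plus strand), a MEF2 consensus that runs across the start of Mef2a (chr7:67372809-67373108, minus strand), 2 CArG boxes 82 to 73 and 62 to 53 bases before the start of Srf (chr17:46556113-46556412, minus strand), and 3 M-CAT cores in a promoter of Tead3 (chr17:28350551-28350850, minus strand). Of these Tead3 cores, 2 lie 123 to 118 and 114 to 109 bases before the start and 1 lies after it on the reverse strand, and another of the 3 Tead3 promoters holds 1 more. Whether any factor sits on these letters was not measured.
Mef2c: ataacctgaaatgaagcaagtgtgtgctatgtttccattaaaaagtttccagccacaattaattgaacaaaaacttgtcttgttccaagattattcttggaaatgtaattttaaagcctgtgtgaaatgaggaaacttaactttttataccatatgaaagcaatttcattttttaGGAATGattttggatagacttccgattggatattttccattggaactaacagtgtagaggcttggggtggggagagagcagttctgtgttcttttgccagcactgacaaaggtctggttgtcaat
Mef2a: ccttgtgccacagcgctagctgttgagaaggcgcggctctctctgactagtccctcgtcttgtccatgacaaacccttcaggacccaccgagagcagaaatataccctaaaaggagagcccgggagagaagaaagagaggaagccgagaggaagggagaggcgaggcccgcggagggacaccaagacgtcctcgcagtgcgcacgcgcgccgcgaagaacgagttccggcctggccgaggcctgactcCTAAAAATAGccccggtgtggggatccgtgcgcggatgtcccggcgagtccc
Srf: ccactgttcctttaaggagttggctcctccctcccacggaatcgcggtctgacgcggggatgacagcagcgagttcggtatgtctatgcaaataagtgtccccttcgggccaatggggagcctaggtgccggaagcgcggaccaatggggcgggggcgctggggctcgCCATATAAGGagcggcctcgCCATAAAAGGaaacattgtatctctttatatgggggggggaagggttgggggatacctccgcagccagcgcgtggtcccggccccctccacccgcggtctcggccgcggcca
Tead3: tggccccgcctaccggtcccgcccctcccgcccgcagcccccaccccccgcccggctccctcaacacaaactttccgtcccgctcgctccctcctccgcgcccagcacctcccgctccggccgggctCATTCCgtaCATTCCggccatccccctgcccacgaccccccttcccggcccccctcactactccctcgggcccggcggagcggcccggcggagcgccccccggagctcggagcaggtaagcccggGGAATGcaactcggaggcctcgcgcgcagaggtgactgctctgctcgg

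WT LV replicate 2 was kept apart from the LV results, and it held transcripts of skeletal muscle fibres. The summed level of 8 markers of fast skeletal muscle fibres was 26347 CPM (counts scaled to the library's total) in WT LV replicate 2, 110 to 125 CPM in the other 4 LV libraries and 106358 to 116156 CPM in SkM. Myh4, the fast IIb myosin heavy chain, was the most abundant of these markers in both tissues, and it stood at 18473 CPM in WT LV replicate 2. Adipocyte markers were also higher there, at 245 CPM summed against 1.57 to 20.96 CPM in the other LV libraries, and ranged from 7.84 to 1037 CPM in SkM. Mef2c, at 269 CPM in WT LV replicate 2 against 108 to 122 CPM in the other LVs, lay 21.1% of the way from the LV mean to the SkM mean. The part of the fibre and adipocyte transcripts in the levels of Mef2c in this library was not tested.

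Among the 9 factors, 3 were above the range of the other LVs in WT LV replicate 2, 1 was below it and 5 were within it. Tead1 was at 405 CPM there against 199 to 395 CPM in the other LVs. Tead4, at 20.5 CPM, was 1.36 times the highest of the other 9 libraries, SkM included. Mef2b was the member below the range, at 0.450 CPM against 0.636 to 0.960 CPM. Unless WT LV replicate 2 is named, LV means below cover the other 4 libraries (n = 4) and SkM means cover 5.

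Muscle markers otherwise matched the labelled tissues. Summed ventricular markers stood at 70708 ± 4087 CPM in LV (mean ± SD, n = 4) and 248 ± 157 CPM in SkM (n = 5), with Myh6, the alpha myosin heavy chain, as the most abundant. Sums of the slow fibre, atrial and smooth muscle markers were higher in LV but held genes that were higher in SkM. The slow fibre markers summed to 3855 ± 641 CPM in LV and 971 ± 808 CPM in SkM, with Myh7 highest, while Tnni1 and Tnnt1, the slow troponins I and T, were called higher in SkM (log2 fold change LV over SkM -8.24 and -3.68, edgeR). The atrial markers summed to 371 ± 179 CPM in LV, of which Nppa made up 364 CPM, and 10.5 ± 4.89 CPM in SkM, while Sln, or sarcolipin, was called higher in SkM (-3.44 on the log2 scale). Lmod1, a leiomodin, was the smooth muscle marker called higher in SkM (-4.40 on the log2 scale), and these 4 genes were named after their values were seen. Non-muscle transcripts differed too, since summed endothelial markers were 7.46 times, fibroblast markers 4.61 times and smooth muscle markers 3.20 times as high in LV as in SkM on the CPM scale. Their most abundant genes were Cdh5, Dcn and Smtn in both tissues. Schwann cell markers, led by Pmp22, summed to 75.6 ± 13.4 CPM in LV and 75.8 ± 47.1 CPM in SkM, and 2 of the 4 were called higher in SkM with TMM (1 with total counts, and 2 higher in LV). Of the 5 red blood cell markers, 3 were found by symbol. Of these, Hba-a1 and Hba-a2 were at 0 in every library, and Alas2 stood at 27.2 ± 3.19 CPM in LV and 9.12 ± 6.60 CPM in SkM. How reads that match several genes were counted is not stated, so values of 0 need not mean that globin RNA was absent. In bulk tissue, fewer cells of a type and less RNA per cell cannot be told apart, and the part of these cell types in the tissue differences of the 9 factors was not tested.

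Mef2d was the leading MEF2 transcript of LV, and Mef2c that of SkM. Per exon length, Mef2c reached 129 ± 4.01 RPKM in SkM (mean ± SD, n = 5) against 17.3 ± 0.974 RPKM in LV (n = 4). RPKM, the count divided by exon length and library total, is the scale on which levels of different genes are compared here. Mef2d, whose loss blunts the response of the heart to pressure load, stood at 71.7 ± 3.59 RPKM in LV and 66.4 ± 4.60 RPKM in SkM. The order by RPKM was Mef2d, Mef2a, Mef2c and Mef2b in each of the 4 LVs and also in WT LV replicate 2, and it was Mef2c, Mef2d, Mef2a and Mef2b in each of the 5 SkM libraries. Neighbours in both orders did not overlap in their ranges over the 4 LVs and the 5 SkM libraries, WT LV replicate 2 left out. The order in LV depends on dividing by exon length. On the CPM scale Mef2d still led in the 4 LVs, but Mef2a was close to it in WT LV replicate 1 (175 and 177 CPM). On that scale Mef2c was above Mef2a in E0del/+ LV replicate 2 (109 and 103 CPM), and it led in WT LV replicate 2 (269 against 174 CPM for Mef2d).

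**Figure D1:**
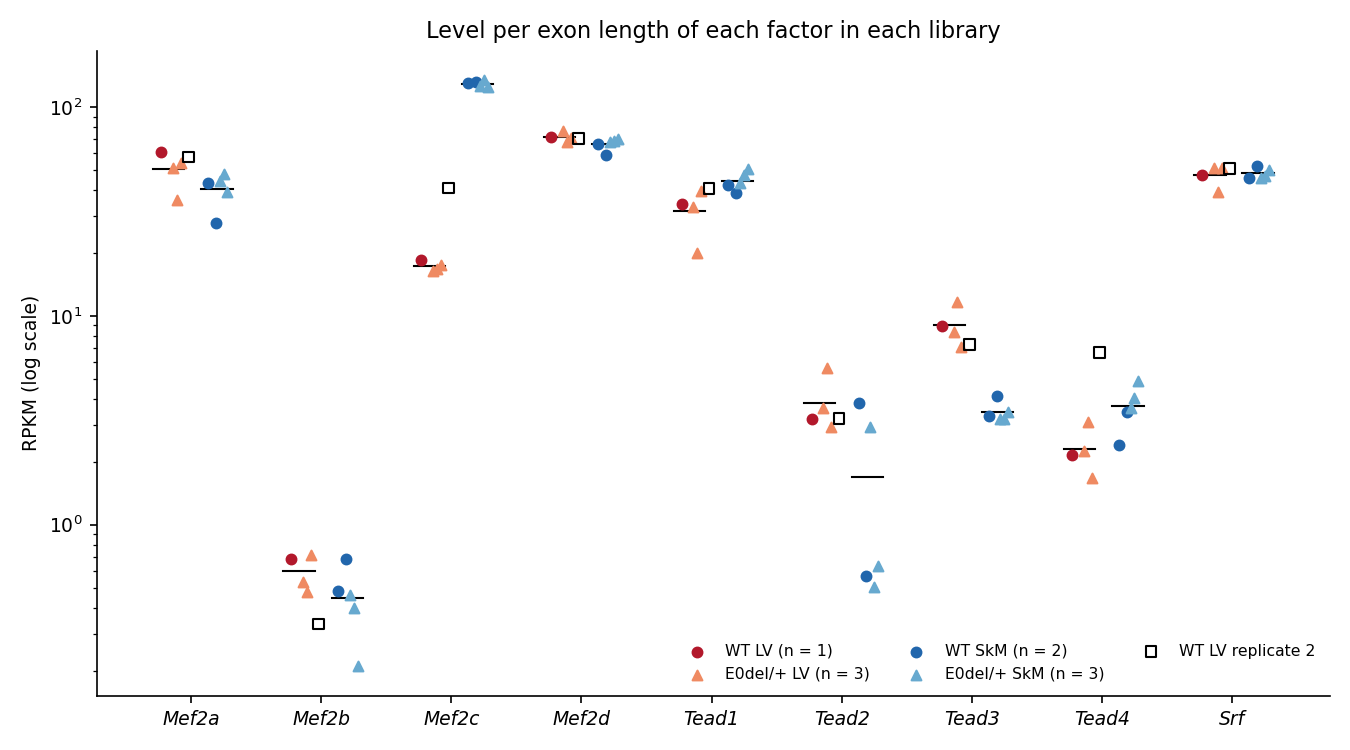
Level of each factor in RPKM (log axis) in each library: points are single libraries, coloured by tissue with circles for WT and triangles for E0del/+, open squares mark WT LV replicate 2, and lines are means of 4 LV and 5 SkM libraries. Mef2c lies at 125 to 135 RPKM in SkM and 16.4 to 18.6 RPKM in LV, and Mef2b lies under 1 RPKM in every library.

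Mef2c, which the heart tube needs in order to loop and which skeletal muscle needs to keep its sarcomeres in order after birth, lies on chromosome 13 of mm10 from 83504034 to 83667079. Its level was 122 CPM in WT LV replicate 1 and 108, 109 and 115 CPM in E0del/+ LV replicates 1 to 3, against 854 and 865 CPM in the WT and 826, 883 and 821 CPM in the E0del/+ SkM libraries. Every SkM value lay above every LV value, WT LV replicate 2 included. The ratio of SkM to LV in the same mouse was 7.00 in WT mouse 1, 7.65, 8.07 and 7.12 in the E0del/+ mice, and 3.22 in WT mouse 2, on the CPM scale. In the edgeR fit with mouse as a block and TMM scaling, Mef2c was 11.7-fold higher in SkM in 4 of 4 mice, a log2 fold change (LV over SkM) of -3.55 (95% confidence interval -3.96 to -3.14, adjusted p = 3.77e-06).

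CPM and the fitted values differ because TMM rescales each library by the bulk of its genes. The 10 most abundant genes took 12.5% to 14.5% of the counts in LV libraries and 27.2% to 29.5% in SkM, and the TMM factors were 1.18 to 1.43 in LV and 0.733 to 0.902 in SkM. With TMM the median log2 fold change over the 13375 genes tested was 0.02, and with scaling to total counts it was 0.67. The direction of a small tissue difference therefore depends on the scaling, which is said below for each member concerned and for the partners described. Some list genes that are not described, with small negative values with TMM, also reverse.

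Mef2d, on chromosome 3 from 88142395 to 88169167, was at 177 CPM in WT LV replicate 1 and 188, 166 and 175 CPM in the E0del/+ LVs, against 163 and 144 CPM in WT and 167, 170 and 173 CPM in E0del/+ SkM. These CPM ranges overlapped. With TMM scaling the edgeR log2 fold change of Mef2d (LV over SkM) was -0.58 in 4 of 4 mice (adjusted p = 0.00778), and with total counts it was 0.07 and not called. Mef2a, the member whose loss leads to sudden death in newborn mice, lies on chromosome 7 from 67233827 to 67372858. It stood at 175 CPM in WT LV replicate 1 and 146, 103 and 155 CPM in the E0del/+ LVs, against 124 and 80.0 CPM in WT and 127, 138 and 113 CPM in E0del/+ SkM. Its CPM ranges overlapped, and its log2 fold change was -0.46 with TMM (edgeR, adjusted p = 0.106) and 0.19 with total counts, neither of them called. Among the exons deposited with the counts, 0 of the 9 members share bases with another gene. In GENCODE M21, 302 bases (10.5%) of the exon length of Mef2a are shared with Lysmd4 on the opposite strand, which libraries without strand information cannot separate.

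Mef2b, known from germinal centre B cells, was at the limit of detection. It had 4 to 16 counts per library, or 0.282 to 0.960 CPM, and the 4 counts in E0del/+ SkM replicate 3 allow 0.0767 to 0.721 CPM (95% exact Poisson interval, counting error only). It did not pass the filter on low counts in the tissue comparison, so 8 of the 9 members were tested there.

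As a share of the summed MEF2 RPKM, Mef2d took 51.5% in LV and 28.4% in SkM over the 4 mice, and Mef2c 12.4% and 53.4%. A share is a ratio within 1 library, so scaling between libraries does not touch it. The share of Mef2d was 47.3% in the LV and 27.6% in the SkM of WT mouse 1, and 53.0%, 56.0% and 49.6% against 28.5%, 27.4% and 29.9% in E0del/+ mice 1 to 3. It was higher in LV in 4 of 4 mice by 23.1 ± 4.30 points (two-sided exact sign permutation over mice, p = 0.125, the lowest value possible with 4). In WT mouse 2 the difference was 14.9 points, and with 5 mice the exact permutation p was 0.0625, again the smallest possible. The share of Mef2c differed by -41.0 ± 1.02 points (LV minus SkM, n = 4) and that of Mef2a by 17.6 ± 5.12 points, each in the same direction in 4 of 4 mice with the same exact permutation p of 0.125. In WT mouse 2 these differences were -36.0 and 21.2 points. The share of Mef2b was higher in LV by 0.268 ± 0.0995 points (n = 4), and lower by -0.114 points in WT mouse 2. Summed MEF2 RPKM was 140.0 ± 13.4 in LV and 237 ± 11.9 in SkM.

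**Figure D2:**
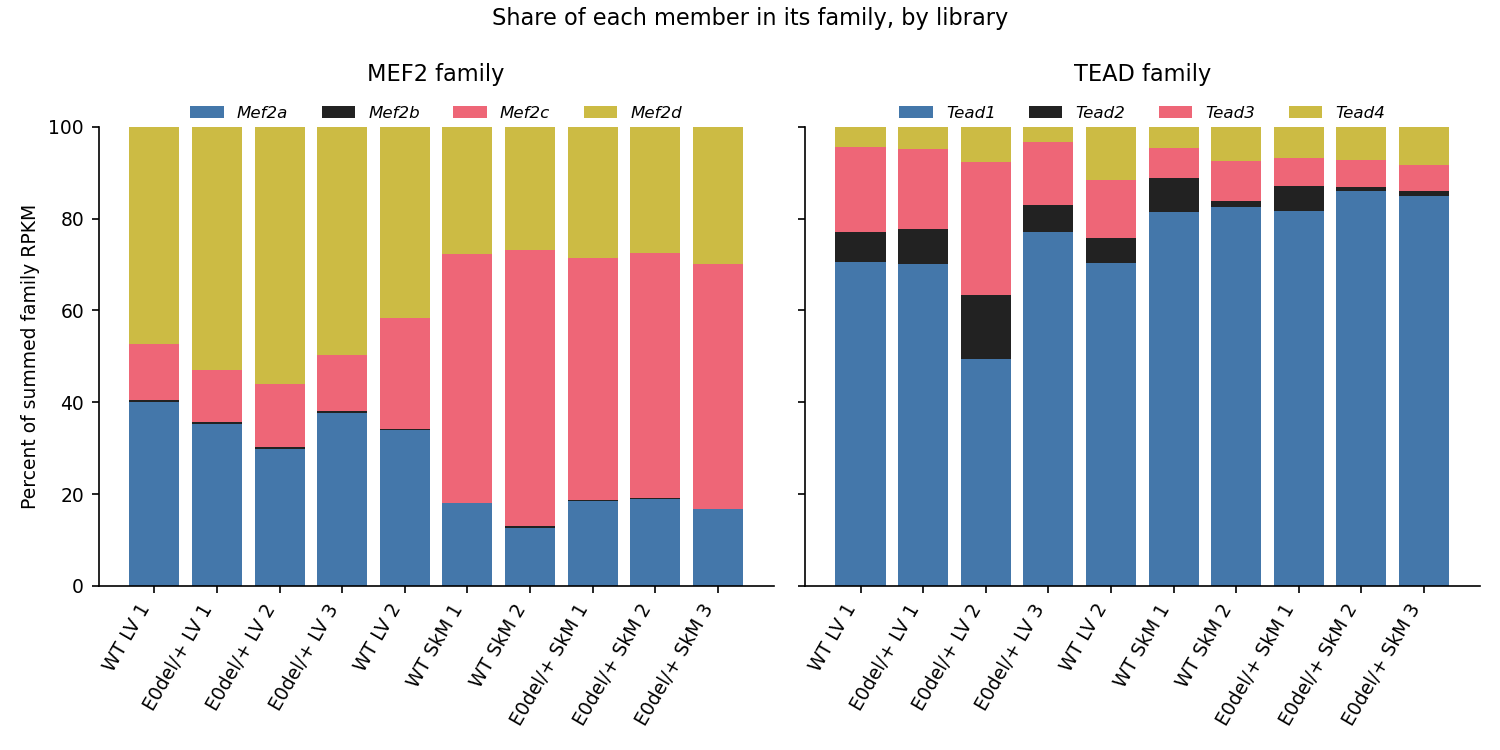
Share of each member in the summed RPKM of its family, in percent, with 1 bar per library; WT LV 2 is the library kept apart. Mef2d leads in LV and Mef2c in SkM, while Tead1 leads in both, at 49.4% in E0del/+ LV replicate 2 and 70.1% to 85.9% in the other 9 libraries.

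Tead1 led the TEAD family in both tissues. It stood at 31.8 ± 8.36 RPKM in LV (n = 4) and 44.4 ± 4.60 RPKM in SkM (n = 5), and its lead over the next member held in each of the 10 libraries. Tead3, known from placenta, came next in LV at 9.03 ± 1.94 RPKM, ahead of Tead2 at 3.84 ± 1.22 RPKM and Tead4 at 2.29 ± 0.594 RPKM. Tead2 was above Tead4 in 4 of 4 LVs although their ranges overlapped, and below it in WT LV replicate 2. In SkM the lower places were not separated. Tead4 (3.69 ± 0.902 RPKM) was above Tead3 (3.47 ± 0.391 RPKM) in 3 of 5 libraries, all E0del/+, and below it in the WT libraries. Tead3 was above Tead2 (1.70 ± 1.58 RPKM) in 4 of 5.

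Tead1, the TEAD factor that the embryonic heart wall needs to grow, lies on chromosome 7 from 112679320 to 112906805. It was at 340.0 CPM in WT LV replicate 1 and 331, 199 and 395 CPM in the E0del/+ LVs, against 419.6 and 386 CPM in WT and 431, 472 and 503 CPM in E0del/+ SkM. E0del/+ LV replicate 2 was the lowest library, and the tissue ranges overlapped. Within mice Tead1 was higher in SkM in 4 of 4 on the CPM scale, and in WT mouse 2 the ratio of SkM to LV was 0.954. The edgeR log2 fold change (LV over SkM) was -1.21 with TMM (95% confidence interval -1.78 to -0.64, adjusted p = 0.00365), and -0.57 with total counts, called in both.

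Tead3 was the member called higher in LV. Its level was 26.8 CPM in WT LV replicate 1 and 25.1, 35.1 and 21.4 CPM in the E0del/+ LVs, against 10.01 and 12.5 CPM in WT and 9.66, 9.66 and 10.3 CPM in E0del/+ SkM. No LV value reached down to an SkM value. With TMM it was 1.71-fold higher in LV in 4 of 4 mice (edgeR, log2 fold change 0.78, adjusted p = 0.00180), and with total counts its log2 fold change was 1.43. Tead4, a factor of the trophectoderm that is also switched on as myoblasts differentiate, was at 6.61 CPM in WT LV replicate 1 and 6.90, 9.54 and 5.15 CPM in the E0del/+ LVs, against 7.41 and 10.7 CPM in WT and 11.1, 12.4 and 15.1 CPM in E0del/+ SkM. These CPM ranges overlapped. Tead4 was 2.54-fold higher in SkM with TMM, in 4 of 4 mice (edgeR, log2 fold change LV over SkM -1.34, adjusted p = 0.00190), and its log2 fold change was -0.69 with total counts.

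Tead2, which is most abundant in embryos, differed most between libraries of 1 tissue. It was at 6.76 CPM in WT LV replicate 1 and 7.62, 11.9 and 6.19 CPM in the E0del/+ LVs. In SkM it was at 8.13 and 6.21 CPM in the WT and E0del/+ libraries of batch 1, and at 1.20, 1.07 and 1.34 CPM in the other 3. Among the leukocyte markers, Ptprc, a phosphatase of all leukocytes, was also higher in the batch 1 SkM libraries, at 39.1 and 80.1 CPM against 0.515 to 5.73 CPM. The macrophage markers Csf1r (7.92 and 4.68 against 1.72 to 10.8 CPM) and Cd163 (6.26 and 8.49 against 4.80 to 12.5 CPM), named after their values were seen, overlapped, and Cd68, at 13 to 16 counts per SkM library, was at 1.15 and 0.984 against 0.744 to 0.933 CPM. The part of leukocytes in the level of Tead2 was not tested. Tead2 was not called between tissues (edgeR, log2 fold change 0.63, adjusted p = 0.342), and leaving out 1 mouse gave 0.06 (without E0del/+ mouse 2) to 1.20 (without WT mouse 1). Without both batch 1 mice, a choice made after the data were seen, Tead2 was called at 2.07, while Mef2d (-0.78) and Tead3 (0.68) were no longer called. The mice left out are those with the higher SkM values of Tead2, so its call there is no separate test.

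Of the summed TEAD RPKM, Tead1 took 66.8% in LV and 83.5% in SkM over the 4 mice. Its share was 70.5% in the LV and 81.5% in the SkM of WT mouse 1, and 70.1%, 49.4% and 77.2% against 81.6%, 85.9% and 84.9% in E0del/+ mice 1 to 3. It was lower in LV in 4 of 4 mice, by -16.7 ± 13.3 points (exact sign permutation p = 0.125, the smallest possible), and by -12.3 points in WT mouse 2. Without E0del/+ mouse 2 the difference was -10.1 points, and with shares of CPM in place of RPKM it was -7.42 points. In the LV of E0del/+ mouse 2, Tead2, Tead3 and Tead4 (9.54 against 5.15 to 6.90 CPM) were at their highest of the 4 LVs. So were the summed endothelial (2424 CPM against 1358 to 1692 CPM in the other 3 LVs), fibroblast (1164 against 632 to 1001 CPM), atrial (594 against 222 to 437 CPM) and slow fibre markers (4772 against 3354 to 3813 CPM). The leukocyte (91.6 against 70.1 to 90.5 CPM) and Schwann cell sums (88.4 against 61.7 to 85.7 CPM) were also highest there. Over the LVs the atrial sum was mostly Nppa and the slow fibre sum was led by Myh7. Summed ventricular markers were lowest in the LV of E0del/+ mouse 2, at 66057 against 68561 to 74724 CPM. That sum is led by Myh6, at 43022 against 50083 to 54803 CPM. Other ventricular markers, named after their values were seen, were instead highest there. They were Myl2 (3782 against 2550 to 2707 CPM), Myl3 (4332 against 3172 to 3878 CPM), Tnni3 (3022 against 2102 to 2211 CPM) and Tnnt2 (9751 against 7648 to 8831 CPM). The part of these markers in the shares was not tested. The Tead3 share was 19.7% in LV and 6.03% in SkM, higher in LV in 4 of 4 mice by 13.7 ± 6.55 points (exact permutation p = 0.125), or 6.08 points with shares of CPM, and by 3.75 points in WT mouse 2. For Tead2 and Tead4 the share differences were 4.72 ± 5.97 and -1.73 ± 2.41 points, with an exact permutation p over 4 mice of 0.250 and 0.375, and in WT mouse 2 they were 4.38 and 4.13 points. Without E0del/+ mouse 2 the difference of Tead2 was 1.95 points, without E0del/+ mouse 3 that of Tead4 was -0.652 points, and with shares of CPM they were 1.57 and -0.227 points. Summed TEAD RPKM was 46.9 ± 4.66 in LV and 53.3 ± 4.59 in SkM.

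Srf, the single SRF gene, lies on chromosome 17 from 46546839 to 46556162 and stood at 47.2 ± 5.61 RPKM in LV (n = 4) and 48.1 ± 2.82 RPKM in SkM (n = 5). It was at 193 CPM in WT LV replicate 1 and 210.0, 161 and 209 CPM in the E0del/+ LVs, against 188 and 213 CPM in WT and 188, 191 and 205 CPM in E0del/+ SkM. The CPM ranges overlapped. With TMM the edgeR log2 fold change of Srf (LV over SkM) was -0.66 in 4 of 4 mice (adjusted p = 0.00870), and with total counts it was -0.00 and not called.

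In this tissue comparison edgeR called 6 of the 8 members tested, where 61.3% of all 13375 genes were called. Of the 6, 1 was higher in LV (31.5% of all genes) and 5 were higher in SkM (29.8% of all genes). Being called is thus common among genes here, and the size of a difference separates the members better: the 90th percentile of the absolute log2 fold change over all genes was 2.43, which Mef2c exceeds and the other 7 tested do not. With total counts 4 of the 8 members were called (70.2% of all genes), 1 higher in LV (57.5% of all genes) and 3 higher in SkM (12.7% of all genes).

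**Figure D3:**
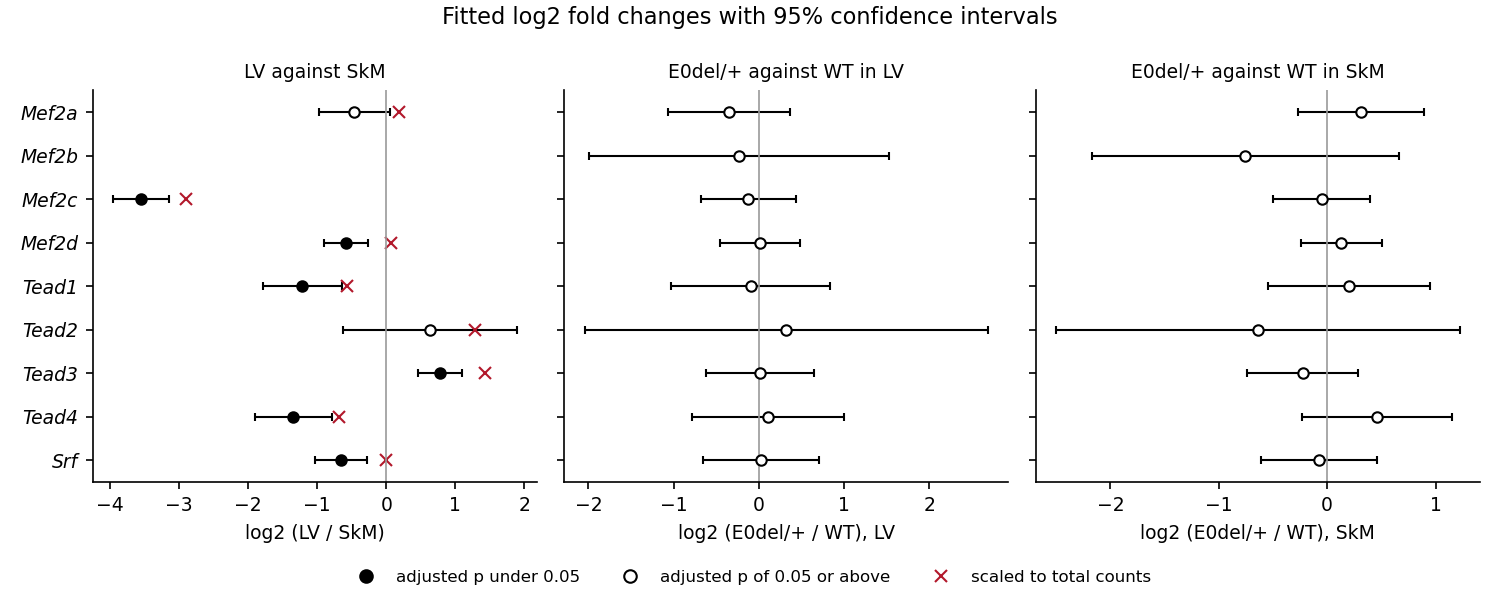
Fitted log2 fold changes of each member with 95% confidence intervals, between tissues (8 libraries) and between genotypes in each tissue (9 libraries); filled points have an adjusted p under 0.05 in edgeR and crosses are the tissue values with total counts. Mef2c stands apart at -3.55, Mef2a and Mef2d cross to 0.19 and 0.07 with total counts, and no genotype interval leaves 0 out.

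Counts for the lists below stand against all genes, of which 31.5% were called higher in LV and 29.8% higher in SkM with TMM, and 57.5% and 12.7% with total counts. Partners of the MEF2 factors differed between tissues in both directions. Of 12 MEF2 cofactors and regulators, 6 were called higher in LV and 5 higher in SkM (7 and 3 with total counts), and their median log2 fold change (LV over SkM) was 0.34 against 0.02 over all genes (0.99 against 0.67 with total counts). Mamstr, a muscle coactivator of MEF2, was at 7.18 ± 1.55 CPM in LV (n = 4) and 36.6 ± 6.61 CPM in SkM (n = 5), and its log2 fold change was -2.91 (edgeR, adjusted p = 4.75e-06). Ppp3ca, the catalytic subunit of calcineurin, was at 47.2 ± 3.61 CPM in LV and 183 ± 25.1 CPM in SkM, with a log2 fold change of -2.62 (edgeR, adjusted p = 8.03e-06). Among the class IIa histone deacetylases, which repress MEF2, Hdac7 (1.72), Hdac9 (0.95) and Hdac5 (0.34) were higher in LV on the log2 scale, and Hdac4 (-0.82) was higher in SkM with TMM but not called with total counts.

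Of the TEAD coactivators, Vgll2 and Wwtr1 were called with both scalings, in opposite directions. Vgll2, a TEAD cofactor of skeletal muscle, was at 0.689 ± 0.203 CPM in LV and 45.1 ± 15.0 CPM in SkM, with a log2 fold change (LV over SkM) of -6.77 (edgeR, adjusted p = 1.92e-06). Vgll3 (-1.17, called with TMM and not with total counts) and Vgll4 (-0.58, not called, and 0.07 with total counts) differed less on the log2 scale, and Vgll1 was at 0 in every library. Wwtr1, which encodes TAZ, was at 120.1 ± 11.4 CPM in LV and 40.4 ± 4.24 CPM in SkM (log2 fold change 0.88, edgeR adjusted p = 3.13e-04). Yap1 was at 139 ± 9.18 CPM in LV and 68.3 ± 9.49 CPM in SkM, with a log2 fold change of 0.30 (edgeR, adjusted p = 0.111) that was 0.95 and called with total counts. Of the 5 coactivators tested, 1 was higher in LV and 2 higher in SkM (2 and 1 with total counts), at a median log2 fold change of -0.58 with TMM and 0.07 with total counts.

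Of the Hippo kinases and adaptors, 3 of 9 were called higher in LV, 3 higher in SkM and 3 not called (4, 2 and 3 with total counts), at a median log2 fold change of -0.32 with TMM and 0.33 with total counts. Amotl1, an angiomotin that binds YAP1, was at 362 ± 33.1 CPM in LV and 1679 ± 180.1 CPM in SkM (log2 fold change -2.81, edgeR adjusted p = 9.29e-06). Sav1, the scaffold of the kinase cascade, was at 27.3 ± 4.13 CPM in LV and 65.8 ± 17.4 CPM in SkM (-2.00 on the log2 scale). Mob1b, a LATS cofactor, had a log2 fold change of -0.90 with TMM and was not called with total counts.

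The SRF cofactors held the largest of these tissue differences. Myocd, which encodes myocardin, the coactivator of SRF in heart and smooth muscle, was at 80.4 ± 7.36 CPM in LV and 0.389 ± 0.222 CPM in SkM, with a log2 fold change of 6.76 (edgeR, adjusted p = 2.48e-07). Mrtfa, its relative that answers to actin, was at 26.9 ± 2.71 CPM in LV and 119 ± 18.7 CPM in SkM (log2 fold change -2.80, edgeR adjusted p = 5.07e-06). Mrtfb was lower in LV with TMM (log2 fold change -0.42) and higher in LV with total counts (0.23), called in both. Fhl2, a LIM protein of the heart that binds SRF, was at 1302 ± 49.3 CPM in LV and 2.80 ± 1.42 CPM in SkM (log2 fold change 8.24), and Hopx, a homeodomain protein that restrains SRF, was at 222 ± 16.6 and 1.59 ± 0.306 CPM (6.37). Of 9 SRF cofactors, 4 were higher in LV and 3 higher in SkM (7 and 1 with total counts), at a median log2 fold change of 0.02 (0.67 with total counts), equal to that of all genes to 2 decimals.

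Known target genes of the 3 families were higher in LV for TEAD and in either tissue for MEF2 and SRF. TEAD targets were called higher in LV in 6 of 6 tested with TMM, against 31.5% of all genes, and in 6 of 6 with total counts, against 57.5%. Their median log2 fold change was 1.89 with TMM and 2.54 with total counts, where that of all genes was 0.02 and 0.67. Ankrd1, a sarcomere-bound repeat protein, was at 1586 ± 521 CPM in LV and 11.0 ± 10.7 CPM in SkM (6.86 on the log2 scale, edgeR adjusted p = 2.68e-04). Ccn2, also called Ctgf, stood at 3.74 and Axl, a receptor kinase, at 2.36 on the log2 scale. Of 10 MEF2 targets, 2 were higher in LV and 6 higher in SkM (3 and 5 with total counts), at a median of -0.95 with TMM and -0.30 with total counts. The largest were Ckm, the muscle creatine kinase, at -3.76, Xirp2, a Xin repeat protein, at -3.02 and the nuclear receptor Nr4a1 at -2.55 on the log2 scale. Of 9 SRF targets, 2 were higher in each tissue (4 in LV and 1 in SkM with total counts): Acta1, the skeletal actin, had a log2 fold change of -6.46, and Actc1, the cardiac actin, and Acta2, the smooth muscle actin, had 3.28 and 1.42. Many of these targets are also markers of cardiac, fibre, vascular or stromal cells, and the part of the factors in their levels was not tested.

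**Figure D4:**
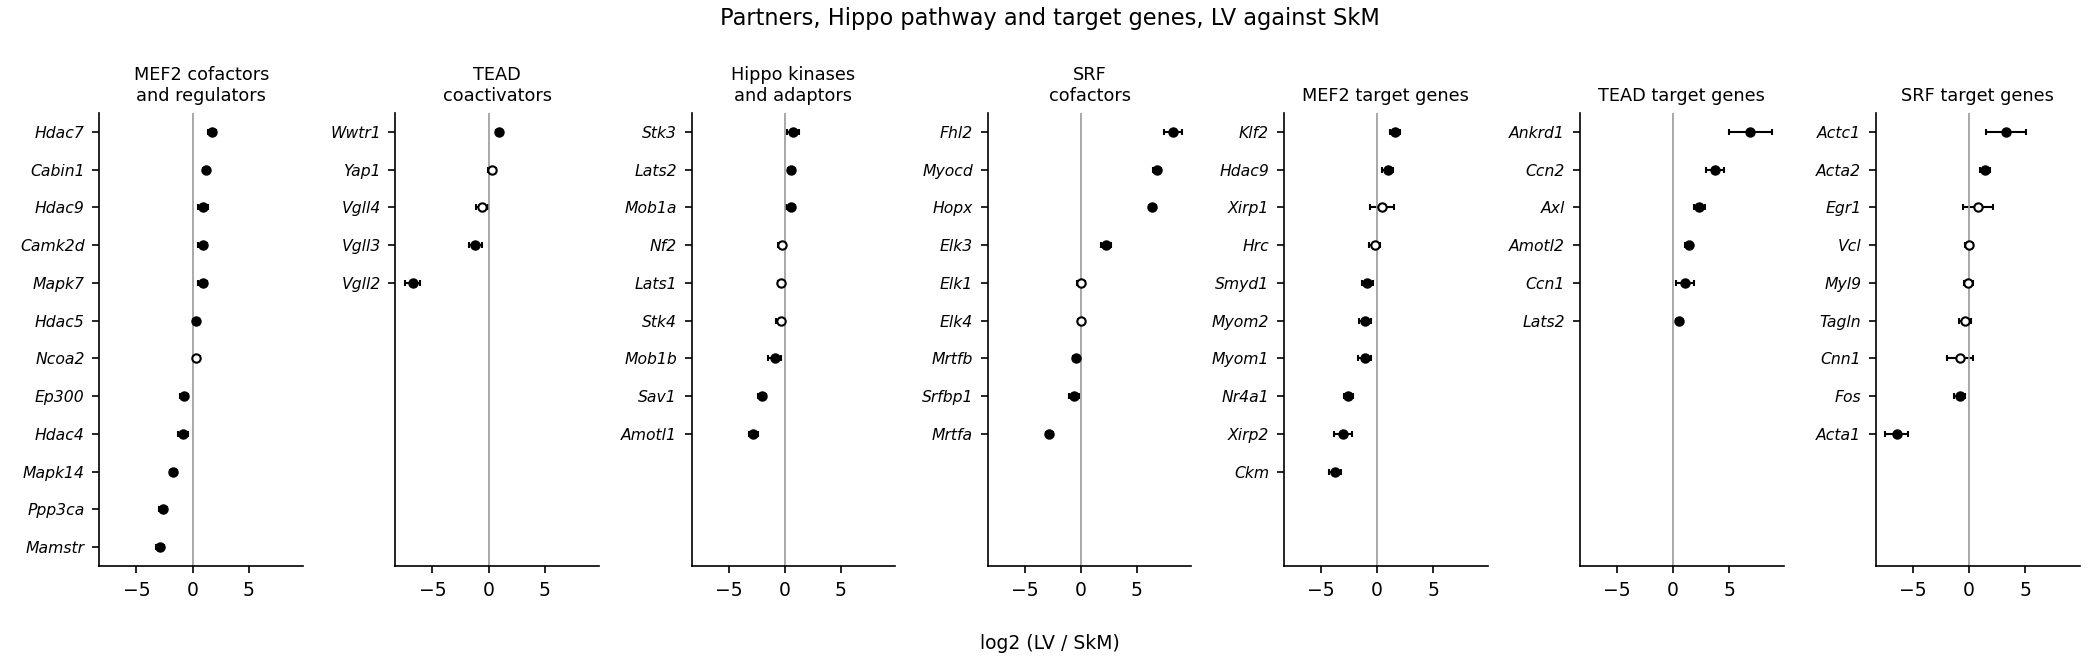
Log2 fold change (LV over SkM, TMM) with 95% confidence intervals for each tested gene of the partner, Hippo and target lists; filled points have an adjusted p under 0.05 in edgeR. Vgll2 and Acta1 lie farthest toward SkM and Fhl2, Ankrd1, Myocd and Hopx farthest toward LV, and Mrtfb, at -0.42, is 0.23 with total counts.

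Between genotypes the 9 factors were compared in each tissue, with 1 WT and 3 E0del/+ LVs and with 2 WT and 3 E0del/+ SkM libraries in 1 edgeR fit of 9 libraries. In LV, Mef2a was at 175 CPM in the WT and 103 to 155 CPM in the E0del/+ libraries, and Mef2c at 122 CPM against 108 to 115 CPM. These were the 2 members whose CPM ranges did not overlap, and 34.2% of the 14815 genes tested also had ranges that did not overlap with 1 WT library. With TMM-scaled CPM, added after the data were seen, Mef2a was still below (72.3 to 131 against 136), Mef2c overlapped, and every E0del/+ LV was above the WT LV for Tead2 (5.26 to 8.33 against 5.25), so again 2 members did not overlap, against 35.8% of genes. In SkM the CPM ranges of 4 members did not overlap, against 11.6% of genes. Mef2d (144 and 163 CPM in WT, 167 to 173 CPM in E0del/+), Tead1 (386 and 419.6 against 431 to 503 CPM) and Tead4 (7.41 and 10.7 against 11.1 to 15.1 CPM) had every E0del/+ above every WT value on this scale but overlapped with TMM-scaled CPM, and Mef2b (0.648 and 0.915 against 0.282 to 0.615 CPM) had every E0del/+ value below with both. With TMM-scaled CPM 2 members did not overlap in SkM, against 12% of genes, namely Mef2b and Mef2a (109 and 137 in WT, 139 to 174 in E0del/+). Within SkM, WT SkM replicate 2 had the lowest summed endothelial (136 against 218 to 284 CPM), fibroblast (98.1 against 120 to 303 CPM) and slow fibre markers (104 against 218 to 1980 CPM). Its fast fibre sum was the highest (116156 against 106358 to 115481 CPM). The part of these markers in the genotype values was not tested.

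No member passed the test for genotype. In LV edgeR called 0 of 9 members (0% of the 14815 genes tested), in SkM 0 of 9 (0%) and for the difference of the genotype effects between tissues 0 of 9 (0%). At an unadjusted p under 0.05 edgeR counted 71, 266 and 129 genes in the 3 comparisons and 0 members in each, and the DESeq2 Wald test called 0 genes in each, with 46, 244 and 82 at an unadjusted p under 0.05. These unadjusted counts depended on single libraries: without WT SkM replicate 1 edgeR counted 2211 genes in SkM and 1359 for the difference, and with WT LV replicate 2 it counted 552 in LV and 477 for the difference. Under such choices Mef2c in LV and Tead4 in the difference (both with WT LV replicate 2), Tead2 in SkM (without E0del/+ SkM replicate 1) and Tead4 in SkM (without WT SkM replicate 2) also had an unadjusted p under 0.05 in edgeR, with none called. The log2 fold changes (E0del/+ over WT) of the members were -0.34 for Mef2a to 0.32 for Tead2 in LV, and -0.76 for Mef2b to 0.46 for Tead4 in SkM. For Mef2c, the 95% confidence interval was -0.68 to 0.44 in LV and -0.50 to 0.39 in SkM on the log2 scale. For Mef2d it was -0.46 to 0.49 in LV and -0.24 to 0.51 in SkM, and for Srf -0.65 to 0.70 and -0.61 to 0.46. Tead1 had -1.04 to 0.84 in LV and -0.55 to 0.95 in SkM, and Tead2 the widest, at -2.05 to 2.69 and -2.50 to 1.22. For Mef2a it was -1.06 to 0.37 in LV and -0.27 to 0.89 in SkM, for Mef2b -1.99 to 1.53 and -2.17 to 0.66, for Tead3 -0.62 to 0.65 and -0.74 to 0.28, and for Tead4 -0.78 to 1.00 and -0.23 to 1.15.

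Some genotype values of the members moved with the choice of libraries or the batch block, with none called. With WT LV replicate 2 included, the log2 fold change of Tead4 in LV was -1.02 instead of 0.11, and that of Mef2c was -0.89 instead of -0.12. With batch number in the fit, that of Tead2 in LV was 1.49 instead of 0.32. Without WT SkM replicate 1, one of the batch 1 libraries, that of Tead2 in SkM was 1.04 instead of -0.64, and it was -1.75 without E0del/+ SkM replicate 1 and -1.34 without WT SkM replicate 2. In SkM, the log2 fold change of Tead4 was 0.10 without WT SkM replicate 1 and 1.01 without WT SkM replicate 2, and that of Mef2b was -0.23 without WT SkM replicate 2. With batch number in the fit edgeR called 2 genes in SkM, neither of them a member: Eif2s3y (log2 fold change -6.04) and Ddx3y (-6.60), both Y-linked and named after their values were seen. The labels do not give sex, and sex was not assigned from the Y-linked counts of each library. The genotype groups may therefore differ in sex, and its part in the genotype values was not tested. Among the partner, Hippo and target lists edgeR also called 0 genes for genotype in either tissue.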

How the data were processed

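Raw counts of 10 libraries (5 mice, LV and SkM) were tested. The authors deposited a raw count and an RPKM per gene and library, and the RPKM equals the count over exon length and library total. Their notes name STAR, DESeq2 and mm10 without versions, and the counting software is not stated. CPM is the count scaled to the library total. Tests used edgeR 4.0.16 in R 4.3.3 (filterByExpr with a minimum count of 10, TMM, quasi-likelihood, Benjamini-Hochberg over all genes tested, threshold 0.05) with limma 3.58.1. The tissue fit had mouse as a block over 8 libraries of 4 mice (3 residual degrees of freedom). The genotype fit had 4 groups over 9 libraries (5 residual degrees of freedom), so the lone WT LV library is assumed to vary like the other groups. Shares were compared by exact permutation of signs within mice. The 2 tissues of a mouse were paired because they come from 1 animal, and batch comes from the labels and was not in the genotype fit. Deviations from group means, correlated across genes between the WT and E0del/+ library of 1 batch, gave 0.0310 and -0.118 in LV and 0.518 and 0.310 in SkM, and between the 2 tissues of a mouse -0.101 to 0.0918. The WT LV deviations here include WT LV replicate 2. With 2 WT libraries in a tissue, their deviations mirror each other.

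Named genes are the 9 members, 12 partners always named, the 3 genes of each of the 7 partner, Hippo and target lists with the largest tissue difference past the threshold, and the 3 genes most like Mef2c, Tead1 and Srf. Some marker genes, Lysmd4 and the genes called for genotype under an alternative are named as well. Another 11 lists were cell type markers. The members and lists were chosen with earlier results of these data known. The alternatives were DESeq2 size factors, total counts, the DESeq2 1.42.0 Wald test, 2 other filters on low counts, WT LV replicate 2 included, no mouse block, each tissue alone, a batch block, CPM shares and leaving out each library or mouse. After the data were seen, leaving out the batch 1 mice or their SkM libraries and TMM-scaled CPM ranges between genotypes were added. The promoter motifs were searched in Python 3.11.15.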

Additional observations from a re-analysis of the deposited data

Results flagged for a closer look

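WT LV replicate 2, the library kept out of the LV groups, carried signals above the range of the other 4 LV libraries. Mef2c was at 269 CPM, Tead1 at 405 CPM and Tead4 at 20.5 CPM in that library. The summed fast skeletal muscle fibre markers were at 26347 CPM, with Myh4 at 18473 CPM, and the summed adipocyte markers at 245 CPM, with Cfd, an adipocyte protease, at 159 CPM. The part of the marker transcripts in the levels of the 3 factors was not tested. Tead4 was also above every SkM library, where its highest value was 15.1 CPM.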

How the results depend on the processing

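Of the tissue log2 fold changes of members, 90 of 96 values under the alternatives kept their direction and side of the threshold. With total counts, Mef2a (0.19) and Mef2d (0.0675) reversed, and Srf was -0.00, with an adjusted p of 0.969 (4.11e-04 to 0.969 over its alternatives). Leaving out both batch 1 mice ended the calls of Mef2d (adjusted p 0.0593; 2.98e-04 to 0.484) and Tead3 (0.0712; 1.06e-04 to 0.0712) and made that of Tead2 (0.00374; 0.00374 to 0.924), with 4 libraries left. Those mice held the higher SkM values of Tead2, so its call there is no separate test. Leaving out 1 mouse changed no call and gave -0.616 to -0.173 for Mef2a, -3.63 to -3.42 for Mef2c, -0.652 to -0.460 for Mef2d, -1.35 to -0.903 for Tead1, 0.0566 to 1.20 for Tead2, 0.724 to 0.882 for Tead3, -1.56 to -1.09 for Tead4 and -0.744 to -0.484 for Srf. Of the shares, 52 of 56 values stayed within 1 SD, among them the Tead1 difference, which went from -16.7 to -7.42 points with CPM shares at an SD of 13.3. CPM shares moved Mef2b to 0.139, Mef2c to -48.0 and Tead3 to 6.08 points, and tissue means without pairing moved Mef2c to -42.3. For genotype, 280 of 321 log2 fold changes of members kept their direction, with 0 called under any alternative, and 41 reversed. Among the changes of fit or libraries other than leaving out 1, direction was kept but the value moved most for Mef2c in LV, to -0.893 with the 10 libraries and -0.905 in LV alone with WT LV replicate 2, and for Tead2 in LV, to 1.49 with the batch block. In LV, Tead3 reversed with DESeq2 size factors (-0.000905), the DESeq2 Wald test (-0.000732), the batch block (-0.143) and without the batch 1 SkM libraries (-0.00360). Mef2d reversed with total counts (-0.00253), the 10 libraries (-0.0426), LV alone with WT LV replicate 2 (-0.0531), the batch block (-0.0116) and without the batch 1 SkM libraries (-0.00179). Srf reversed with total counts (-0.000285), the 10 libraries (-0.0966), LV alone with WT LV replicate 2 (-0.109) and the batch block (-0.0742). Mef2b reversed with the 10 libraries (0.132) and LV alone with WT LV replicate 2 (0.103). Tead4 reversed with the 10 libraries (-1.02), LV alone with WT LV replicate 2 (-1.03) and the batch block (-0.122). The causes were not tested. Leaving out 1 library at a time gave log2 ranges that cross 0. In LV they were -0.0496 to 0.123 for Mef2d, -0.0953 to 0.202 for Srf, -0.121 to 0.104 for Tead3, -0.384 to 0.185 for Tead1 and -0.0488 to 0.249 for Tead4. In SkM they were -0.205 to 0.194 for Mef2c, -0.300 to 0.262 for Srf, -0.505 to 0.192 for Tead3 and -1.75 to 1.04 for Tead2. Ranges that kept their direction were, in LV, -0.521 to -0.130 for Mef2a, -0.480 to -0.0514 for Mef2b, -0.215 to -0.0394 for Mef2c and 0.114 to 0.458 for Tead2, and in SkM 0.230 to 0.485 for Mef2a, -1.10 to -0.233 for Mef2b, 0.0676 to 0.272 for Mef2d, 0.114 to 0.373 for Tead1 and 0.0997 to 1.01 for Tead4. LV without WT LV replicate 1 had no WT library and could not be fitted. Genes called for genotype in SkM were 0 to 1 when a library was left out, with Igfn1 called without WT SkM replicate 1. They were 2 with the batch block (Eif2s3y and Ddx3y, both Y-linked) and 2 without the batch 1 SkM libraries (Igfn1 and Postn), all chosen for naming after their values were seen. The batch block changed no other call. The main limits are 4 paired mice, which allow no permutation p under 0.125, and a single WT LV library beside WT LV replicate 2. The tissue directions of Mef2a and Mef2d and the calls of Mef2d and Srf depend on the scaling. Mef2b, at 4 to 16 counts, is limited by depth.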

Other observations

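Genes whose log2 CPM (TMM) followed a member most closely over the 9 libraries are given as a description, and no p is given because the libraries fall into 2 tissues. Mef2c was followed by Hoxc10 (Pearson r = 0.999), a homeobox gene of the hind body, Jsrp1 (r = 0.999), a protein of the skeletal muscle triad, and Tnnc2 (r = 0.999), the fast skeletal troponin C. Tead1 was followed by Pard3 (r = 0.999), a cell polarity protein, Ubr4 (r = 0.994), a ubiquitin ligase, and 1500003O03Rik (r = 0.993). Srf was followed by Slc2a4 (r = 0.997), the insulin-dependent glucose transporter, Fech (r = 0.994), the last enzyme of haem synthesis, and Pdk2 (r = 0.992), a kinase of pyruvate dehydrogenase.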
